A study of Mus musculus with 6 samples.

Results

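The AP-1 transcription factors were followed in mouse CD4 T cells activated with PMA and ionomycin, with VIP set against no VIP. Their members were the array probes named Fos, Fosb, Fosl1, Fosl2, Jun, Junb, Jund, Batf, Atf3 and Maff in the scanner files. These 10 genes had 12 probes among the 41174 probes on the array that are not controls: Fosl2 and Junb had 2 probes each and the other 8 genes had 1. The probes were taken by gene name alone; the list of genes itself was drawn up with results of these arrays known. With VIP, Fos and Fosb were higher on all 6 arrays and passed the test, with fold changes of 1.64 and 1.31. None of the other members passed it, in either direction.

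The cells were CD4 T cells from the spleens of C57BL/6J mice, males and females aged 6 to 32 weeks, with 5 to 10 spleens pooled per sample and the cells taken by anti-CD4 magnetic beads. Both groups, VIP treated and VIP untreated, were activated with PMA/ionomycin, so every value is a difference between activated cells and none compares them with resting cells. On each of 6 two-colour arrays, 1 per biological replicate, total RNA of both groups was hybridised together, with VIP in Cy5 on replicates 1, 3 and 5 and in Cy3 on replicates 2, 4 and 6. The sample titles call the cells spleenocytes, while the source labels call them activated CD4 T cells. The VIP dose, the length of the exposure and how males and females were split over the pools were not given in the sources used here. All log2 ratios are VIP over untreated on the same array, so a positive value means more RNA with VIP. In such bulk samples, fewer expressing cells and less RNA per cell cannot be told apart.

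AP-1 is a dimer of basic leucine zipper proteins that binds DNA. The Jun proteins (Jun, Junb, Jund) can pair with themselves or with Fos proteins, whereas the Fos proteins (Fos, Fosb, Fosl1, Fosl2) need a partner, usually a Jun protein. Batf lacks a transactivation domain of its own and pairs with Jun proteins, Atf3 is a stress-induced member of the ATF branch, and Maff is a small Maf protein, also without a transactivation domain. In T cells AP-1 acts with NFAT at cytokine genes after antigen receptor signalling, which PMA and ionomycin mimic by way of protein kinase C and calcium. VIP is a neuropeptide whose receptors couple to Gs and raise cAMP, and Fos is a textbook target of CREB, the factor that cAMP activates.

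The promoters of Fos and Fosb, the members that rose, are shown with those of Jun and Junb, which did not pass the test, because the core of the CREB site, TGACG, is found in both kinds. Each run is the 130 bases just before the gene's start in RefSeq, on build GRCm38.p6 and on the gene's strand, 5′ to 3′. Capitals mark TGACG or, for Jun, TGACATCA, a variant of the 8-base AP-1 and ATF site. The runs lie at chr12:85473760-85473889 (+), chr7:19310046-19310175 (-), chr4:95052223-95052352 (-) and chr8:84978749-84978878 (-).
Fos: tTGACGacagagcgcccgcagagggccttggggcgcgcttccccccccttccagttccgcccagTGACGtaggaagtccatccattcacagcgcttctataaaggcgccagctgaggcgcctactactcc
Fosb: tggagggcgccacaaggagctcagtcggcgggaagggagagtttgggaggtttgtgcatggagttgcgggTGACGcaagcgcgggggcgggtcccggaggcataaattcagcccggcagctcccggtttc
Jun: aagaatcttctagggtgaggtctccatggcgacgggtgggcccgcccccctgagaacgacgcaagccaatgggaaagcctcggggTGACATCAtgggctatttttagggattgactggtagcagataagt
Junb: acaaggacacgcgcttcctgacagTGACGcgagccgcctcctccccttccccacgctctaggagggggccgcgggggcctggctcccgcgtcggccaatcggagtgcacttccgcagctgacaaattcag

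Fos held TGACG at 129 to 125 and at 66 to 62 bases before its start, Fosb at 60 to 56, and Junb at 106 to 102. Outside the runs shown, Batf held it at 98 to 94 bases before its start and Atf3 at 7 to 3 on the opposite strand. The RefSeq promoter table held 11 promoters for the members, 1 each for Fos, Fosb, Fosl2, Jun, Junb, Jund, Batf and Atf3 and 3 for Maff; Fosl1 had no entry. Searched on both strands over the 250 bases before the start, TGACG was in 7 of the 11 promoters, from 6 genes, and in 17.8% of 32851 promoters of all genes. The full palindrome TGACGTCA, which contains TGACG, was in 1.55% of all promoters and, among the members, in 1 start of Maff. TGACATCA was in 2.93% of all promoters and in Jun and another start of Maff. TGACTCA, the classic AP-1 site (4.46% of all promoters), and the CArG box (1.47%) were in none of the members' windows. Bases further from the start were not searched, so a site there would be missed. Genes with and without a called change thus both held TGACG, and a match is only a description of these letters.

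All 12 probes were well above background on 6 of 6 arrays in both channels, and all 12 were tested, among 33233 probes. The 6 arrays lay on 3 slides of 2, with VIP in Cy5 at one position and VIP in Cy3 at another on every slide, so dye orientation and position cannot be told apart. Replicate 5 stood apart. Outlier flags fell on 13.5% of its spots, against 0.574% to 4.44% on the other arrays. Its 2 RNAs also differed in sex-linked transcripts, with log2 ratios of -3.29 for Xist and 4.08 for Ddx3y, where the other 5 arrays lay between -0.34 and 0.46 for Xist and between -0.10 and 0.39 for Ddx3y. The members' ratios, the class means and the genes called in the lists are therefore also given without replicate 5. Of the 8 T cell markers fixed for the check, all were tested and 1 passed the test (Cd28, 0.28); Cd4 had a log2 ratio of 0.04 (adjusted p = 0.77) and Cd3e one of 0.05 (adjusted p = 0.70). The mean log2 intensity of the T cell markers was 11.5 to 12.5 in both groups, and that of 4 B cell markers 8.44 to 9.40 with VIP and 8.26 to 9.30 without. Of 5 monocyte markers tested, the one past the threshold was Cd14 (0.57 over 5 arrays), named after its value was seen; their mean log2 intensity was 8.30 to 10.1 with VIP and 8.12 to 10.1 without. The 1 erythroid marker tested, which was not called, ranged over the arrays from 9.69 to 13.67 with VIP and from 10.01 to 13.53 without. CD8 T cell markers lay at 8.83 to 10.17 with VIP and 8.65 to 10.28 without. With VIP, those of NK cells lay at 6.35 to 8.67, of neutrophils (1 tested, range over arrays) at 6.85 to 9.69 and of platelets at 6.37 to 9.10. Levels of different probes are not comparable, so purity cannot be read from them. The part of cells other than CD4 T cells in the members' ratios was not tested.

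Over all probes tested, 535 were higher with VIP (1.61%) and 178 lower (0.536%), at an adjusted p under 0.05 from limma's moderated test with Benjamini-Hochberg adjustment. Of the members' 12 probes, 2 were higher, those of Fos and Fosb, and 0 lower. At an unadjusted p under 0.05 in the same limma fit, 4 were higher, the others being both probes of Fosl2, and 0 lower, where 7.19% of all probes were higher and 5.74% lower. Of all probes called, 75.0% were higher; that share was 92.3% with a normexp offset of 0, 95.1% under median centring, and 100% from the scanner's log ratio and from the authors' processed values, and at the lowest 67.6%, with array weights. The median log2 ratio of all probes was -0.00032. The median size of the log2 ratio was 0.0439 over all probes and 0.296 over the probes called.

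**Figure D1:**
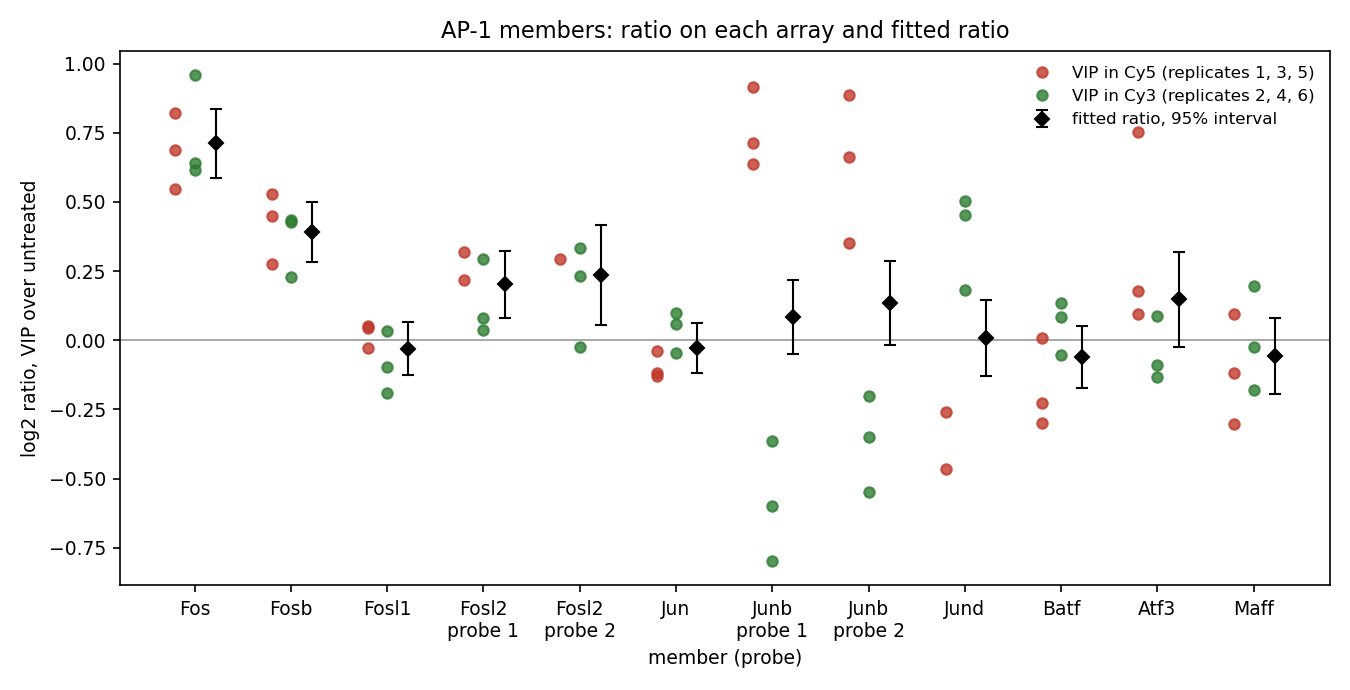
Log2 ratio of VIP over untreated (vertical axis) for each probe of the AP-1 members (horizontal axis). Coloured points are single arrays with VIP in Cy5 (red) or Cy3 (green), and black diamonds with bars are the fitted ratio and its 95% interval. All 6 points of Fos and of Fosb lie above 0, while the points of Junb and Jund separate by dye orientation around a fitted ratio between 0.01 and 0.13.

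Fos, the founding Fos protein and an immediate early gene, had the highest ratio of the members. Its probe lies at chr12:86817900-86817959 (mm9, + strand) and was printed as 10 spots. Its log2 ratios on replicates 1 to 6 were 0.69, 0.62, 0.55, 0.64, 0.82 and 0.96. Every array was above 0, replicate 3 was the lowest and replicate 6 the highest, and the ratios with VIP in Cy5 and in Cy3 overlapped. The fitted log2 ratio was 0.71 ± 0.057 (SE, n = 6 arrays; limma adjusted p = 0.00021), a fold change of 1.64 with a 95% interval of 1.50 to 1.79. In rank it was probe 20 of the 33233 tested.

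Within each array the log2 intensity of Fos was higher in the VIP channel: on replicates 1 to 6 it was 15.0, 15.1, 15.6, 14.4, 14.5 and 15.4 with VIP against 14.3, 14.5, 15.0, 13.8, 13.7 and 14.4 without. Taken as 2 unpaired groups those levels overlapped, since arrays differed from each other by more than VIP and untreated RNA did on 1 array. By slide, the mean of both orientations was 0.65, 0.59 and 0.89, above 0 on each. Without replicate 5 the ratio of Fos was 0.68 (adjusted p = 3.2e-05). The 10 spots of Fos spread little: over the 6 arrays the SD between spots was 0.039 to 0.129. The lowest single spot was 0.35 and the highest 1.03, so all 60 spots were above 0. Fos thus varied more between arrays, with an SD of 0.15, than between the spots of any 1 array. Spots of 1 array share their RNA and labelling and are no replicates of the treatment.

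**Figure D2:**
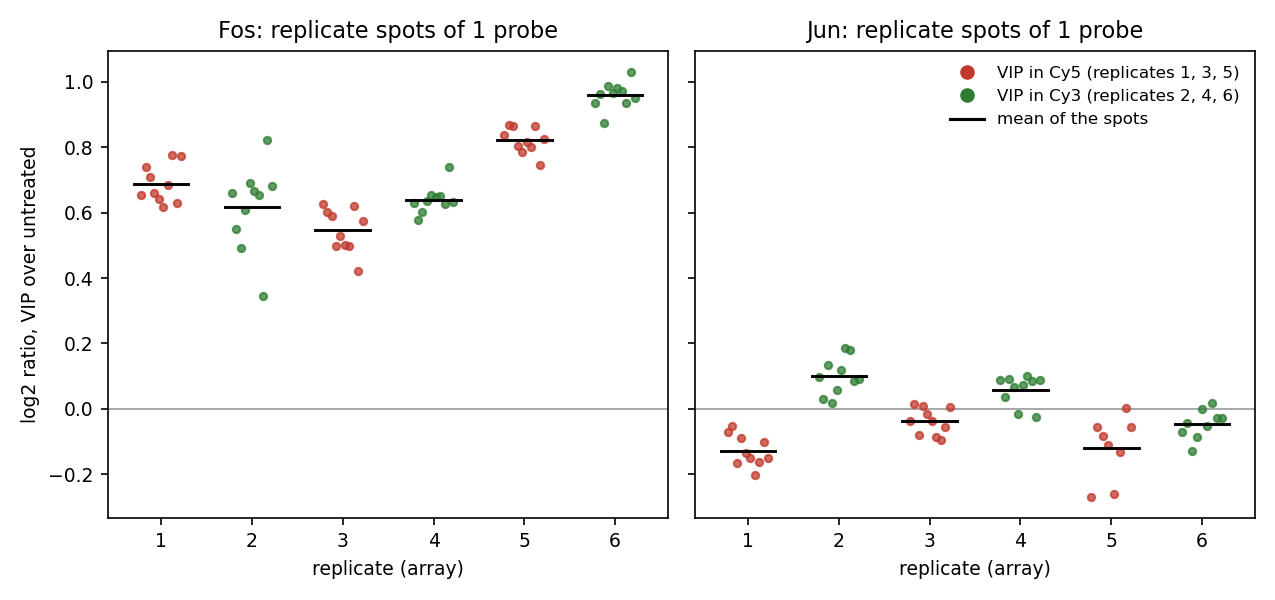
Log2 ratio of VIP over untreated (vertical axis) of every spot of the Fos probe (left) and the Jun probe (right) on each replicate array (horizontal axis), with bars at the mean of the spots. The Fos spots lie between 0.35 and 1.03 on all 6 arrays and the Jun spots between -0.27 and 0.19, so no spot of one overlaps the other.

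Fosb, a Fos protein with a transactivation domain, rose less. Its probe at chr7:19888477-19888536 (- strand) gave log2 ratios of 0.53, 0.43, 0.45, 0.23, 0.27 and 0.43 on replicates 1 to 6. Replicates 4 and 5 were the lowest and the other 4 lay between 0.43 and 0.53, all above 0. In the fit the log2 ratio was 0.39 ± 0.049 (SE, n = 6; limma adjusted p = 0.0023), a fold change of 1.31 (95% interval 1.22 to 1.41). The slide means were 0.48, 0.34 and 0.35. Without replicate 5 it was 0.43 (adjusted p = 0.00035). The call of Fosb was lost under 4 of the 20 alternative settings: the adjusted p was 0.054 with a normexp offset of 0, 0.097 from the scanner's own log ratio and from the authors' processed values, and 1.00 where the 2 channels of an array were fitted as separate samples.

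Fosl2 (Fra-2), a Fos protein without a strong transactivation domain, had positive fitted ratios at both probes, and neither passed the test. Its first probe, at chr5:32455088-32455147 (+), gave 0.32, 0.29, 0.22, 0.08 and 0.04 on replicates 1, 2, 3, 4 and 6; the spot of replicate 5 carried an outlier flag and was left out. Its second probe, at chr5:32459624-32459683 (+), gave 0.23, -0.02, 0.29 and 0.33 on replicates 2, 4, 5 and 6, with replicates 1 and 3 left out for the same reason. The first was above 0 on 5 of 5 arrays and the second on 3 of 4. The fitted log2 ratios were 0.20 ± 0.054 (95% interval 0.08 to 0.32; adjusted p = 0.11) and 0.24 ± 0.079 (0.06 to 0.42; adjusted p = 0.23; limma). With the outlier spots kept, replicate 5 of the first probe was 0.23, and replicates 1 and 3 of the second were 0.37 and 0.27. The fits over 6 arrays were then 0.20 ± 0.047 (adjusted p = 0.083) and 0.25 ± 0.052 (limma adjusted p = 0.0497). Without replicate 5 the first probe, which has no value there, had the same ratio and a limma adjusted p of 0.052. With flagged spots left out, replicate 5 was the second probe's only array with VIP in Cy5. Its fitted ratio therefore leaned on that array, and without replicate 5 it could not be fitted. For Fosl2 the call at the second probe therefore turned on whether the spots with an outlier flag entered.

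Fosl1 (Fra-1), the remaining Fos protein, lay near 0. Its probe at chr19:5455496-5455555 (+) gave -0.03, -0.19, 0.05, -0.10, 0.05 and 0.03 on replicates 1 to 6. Of these arrays, 3 were above 0 and 3 below. The fitted log2 ratio was -0.03 ± 0.044 with a 95% interval of -0.13 to 0.07 (limma adjusted p = 0.85); it was -0.04 without replicate 5, and its sign turned under median centring (0.02). That interval does not reach the fitted ratio of Fosb or of Fos.

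Jun, the founding Jun protein, was read by 10 spots at chr4:94715864-94715923 (- strand). Its log2 ratios were -0.13, 0.10, -0.04, 0.06, -0.12 and -0.05 on replicates 1 to 6. Of these, 2 were above 0 and 4 below. The fitted log2 ratio was -0.03 ± 0.041 (95% interval -0.12 to 0.06; limma adjusted p = 0.85), with slide means of -0.01, 0.01 and -0.08 a value of -0.02 without replicate 5 and a turned sign under median centring (0.01). Over 57 spots, 3 being left out, the single values lay between -0.27 and 0.19, and the SD between spots was 0.041 to 0.098. The Jun and Fos probes were thus printed with the same number of spots, with a like spread between spots, and their spots did not overlap. Nor did their means per array, the unit of replication, at -0.13 to 0.10 for Jun and 0.55 to 0.96 for Fos.

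Junb, a Jun protein with weaker activation than Jun, had ratios that followed the dye. Its first probe, at chr8:87500843-87500902 (-), gave 0.71, -0.60, 0.64, -0.37, 0.92 and -0.80 on replicates 1 to 6. Its second, at chr8:87500881-87500940, which overlaps the first, gave 0.66, -0.55, 0.35, -0.20, 0.89 and -0.35. Both probes were above 0 on all 3 arrays with VIP in Cy5 and below 0 on all 3 with VIP in Cy3. The fitted dye effects, red over green, were 0.67 and 0.50; only 0.172% and 0.385% of all probes had a larger one. With the dye effect removed, the arrays lay between -0.13 and 0.31 for the first probe and between -0.15 and 0.39 for the second. The fitted log2 ratios were 0.08 ± 0.060 (95% interval -0.05 to 0.22; adjusted p = 0.63) and 0.13 ± 0.069 (-0.02 to 0.29; limma adjusted p = 0.47). Without replicate 5, on which both probes were saturated in the VIP channel, they were 0.04 and 0.07. Junb thus passed the test at neither probe, and its interval is wider than that of Jun.

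Jund, the Jun protein that is expressed most constantly in many cells, followed the dye the other way. Its probe at chr8:73224436-73224495 (+) gave -0.46, 0.45, -0.26, 0.18 and 0.50 on replicates 1, 2, 3, 4 and 6, with replicate 5 left out as an outlier spot (-0.08 where it was kept). The fitted dye effect was -0.37, which 1.01% of probes exceeded in size. Fitted with that effect, the log2 ratio of Jund was 0.01 ± 0.061 (95% interval -0.13 to 0.15; n = 5, so without replicate 5 in any case; limma adjusted p = 0.97). With the outlier spot kept it was 0.06 (adjusted p = 0.80). No order of VIP and untreated RNA was seen for Jund.

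Batf, which is needed for Th17 and follicular helper cells and pairs with Jun proteins, was read at chr12:87049872-87049929 (+). It gave -0.23, 0.13, -0.30, -0.05, 0.01 and 0.08, 3 arrays above 0 and 3 below. Batf had a fitted log2 ratio of -0.06 ± 0.050 (95% interval -0.17 to 0.05; limma adjusted p = 0.71), -0.10 without replicate 5, and 0.06 under median centring. The ratio of Batf thus did not pass the test and its sign depended on the centring.

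Atf3, a stress-induced ATF protein, was read at chr1:192994547-192994606 (-). It gave 0.18, -0.13, 0.10, 0.09, 0.75 and -0.09, where replicate 5 was far above the others. The fitted log2 ratio of 0.15 ± 0.077 (95% interval -0.02 to 0.32; limma adjusted p = 0.48) was 0.05 without replicate 5 (adjusted p = 0.75). Most of the distance of Atf3 from 0 therefore came from 1 array. Maff, the small Maf protein, gave -0.30, 0.20, -0.12, -0.02, 0.09 and -0.18 at chr15:79189442-79189501 (+), a fitted -0.06 ± 0.062 (95% interval -0.19 to 0.08; adjusted p = 0.79) that turned to 0.01 under median centring. Leaving out 1 array moved Maff between -0.11 (without replicate 5, and without replicate 2) and -0.01 (without replicate 1, and without replicate 6). Neither gene passed the test.

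To set the Fos-type genes against the Jun-type genes and Batf, each gene was taken by its brightest probe. The dye-adjusted ratio, the array's log2 ratio with the fitted dye effect removed, was averaged over the genes of a class on each array. The mean of the 4 Fos-type genes was 0.38, 0.30, 0.33, 0.21, 0.33 and 0.47 on replicates 1 to 6. That of the 3 Jun-type genes was -0.04, 0.06, 0.04, 0.04, 0.10 and -0.04. After dye adjustment the classes did not overlap, since the lowest Fos-type mean was 0.21 and the highest Jun-type mean 0.10. On the same array the adjusted Fos-type mean exceeded the Jun-type mean by 0.42, 0.24, 0.29, 0.18, 0.24 and 0.50, or 0.31 ± 0.12 (SD, n = 6). It exceeded Batf by 0.40 ± 0.13, between 0.21 and 0.51. Class means without the adjustment are not given, so the separation is stated for adjusted ratios only. As measured, Junb (first probe) was above Fos on replicates 1, 3 and 5, at 0.71, 0.64 and 0.92 against 0.69, 0.55 and 0.82. On replicates 2, 4 and 6 Junb was below 0. These means are a description, with no test. The dye effect was fitted on the same arrays, so each gene's adjusted ratios have the same mean in both dye orientations. Within the Fos-type class the difference came from Fos, Fosb and in part Fosl2; Fosl1 lay with the Jun-type genes. Where a gene had no value on an array, the mean was taken over the rest, which concerns Fosl2 on replicates 1 and 3 and Jund on replicate 5. Without replicate 5 the brighter probe of Fosl2 could not be fitted, because its other arrays with VIP in Cy5 were left out for outlier flags. With Fosl2 taken by its first probe instead, the fitted difference between the class means was 0.30 with replicate 5 and 0.31 without it; with Fosl2 left out it was 0.34 and 0.35.

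**Figure D3:**
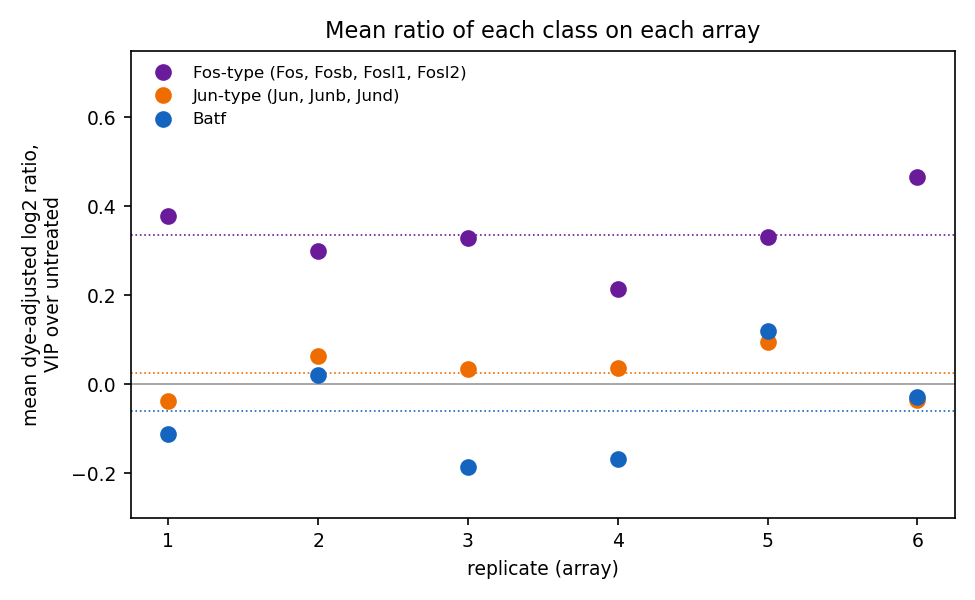
Mean dye-adjusted log2 ratio of VIP over untreated (vertical axis) on each replicate array (horizontal axis) for the Fos-type genes (purple), the Jun-type genes (orange) and Batf (blue), with dotted lines at the mean over arrays. The Fos-type points lie between 0.21 and 0.47 and the Jun-type points between -0.04 and 0.10 on the 6 arrays.

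Single pairs of genes were compared by an exact permutation test (two-sided, flipping the sign of each array) on the difference between their log2 ratios within an array, for all 16 pairs of a Fos-type gene with Jun, Junb, Jund or Batf. Over 6 arrays the smallest p this test can give is 0.03125. Fos exceeded Jun by 0.74 ± 0.21 (SD) and Batf by 0.77 ± 0.16, and Fosb exceeded Jun by 0.42 ± 0.16 and Batf by 0.45 ± 0.23. Each of these 4 differences was positive on 6 of 6 arrays and had that smallest p, 0.03125 by the exact test. Adjusted over the 16 pairs their p was 0.125, and 0 pairs passed 0.05 after adjustment; 4 did before it. Without replicate 5 these 4 differences were positive on 5 of 5 arrays (exact p = 0.0625, the smallest possible there). The genes of the pairs, like those of the classes, were chosen with results of these arrays known.

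The pairs with Junb and Jund carried the opposite dye effects of those genes. Fos exceeded Junb on 3 of 6 arrays as measured (exact p = 0.25) and on 6 of 6 after the dye effect was removed, by 0.31 to 1.06 and by 0.63 in the fit. Fos exceeded Jund on 5 of 5 arrays (exact p = 0.0625, the smallest 5 arrays can give), by 0.70 in the fit. Fosb exceeded Junb on 3 of 6 arrays as measured (exact p = 0.375) and on 5 of 6 after dye adjustment, by 0.31 in the fit. It exceeded Jund on 3 of 5 as measured (exact p = 0.375) and on 5 of 5 after dye adjustment, by 0.38 in the fit. The fitted differences of Fosl1 from the 4 partners ran from -0.11 to 0.03, and those of Fosl2 from 0.15 to 0.30 over 3 or 4 arrays each. As measured, Fosl2 was below Jund on all 3 arrays they share, by 0.17 to 0.22; all 3 have VIP in Cy3, so the fitted 0.23 rests on the dye adjustment. In all, 13 of the 16 fitted differences were above 0; the 3 below it were those of Fosl1 with Jun, Junb and Jund. The Fos-type gene was higher on every shared array in 6 of the 16 pairs as measured and in 10 after dye adjustment. The dye effect was fitted on the same arrays, so the adjusted counts are not independent of the fitted differences.

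The strength of the members' signal also varied between arrays, whatever the treatment. It was taken as the mean log2 intensity of both channels after quantile normalization between arrays, and levels are compared here only within a probe. Spots with an outlier flag, left out of the ratios, were kept in these levels; on replicate 5 they include Jund and the first probe of Fosl2. For Fos it was 14.8, 14.8, 15.1, 14.7, 13.4 and 15.1 on replicates 1 to 6, so that replicate 5 lay 1.41 below the median of the others, a fold of 0.377. For Maff replicate 5 lay at 14.0 against at least 14.8 elsewhere, and for Jund at 14.9 against 15.6 to 16.1. Batf went the other way, with 15.7 on replicate 5 against 13.8 to 14.5 on the rest, 2.38-fold their median, and Atf3 was 1.81-fold its median there. Replicate 5 was the highest array for Batf, Atf3, Fosl1 and the first Junb probe, and the lowest for Fos, Maff, Jund, Jun and the second Fosl2 probe. The probes of Fosl2 disagreed on this array: the first was 2.14-fold and the second 0.408-fold the median of the other arrays. On replicate 5, 3.06% of all probes rose by more than Batf, 4.09% more than Fosl2's first probe and 6.75% more than Atf3. The shares that fell by more were 2.53% for Fos, 2.61% for Maff, 2.77% for Fosl2's second probe and 3.96% for Jund. Fosb and both probes of Junb lay within 0.10 of the median of the others there. The ratio of Fos on replicate 5, 0.82, was nevertheless within the range of the other arrays.

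**Figure D4:**
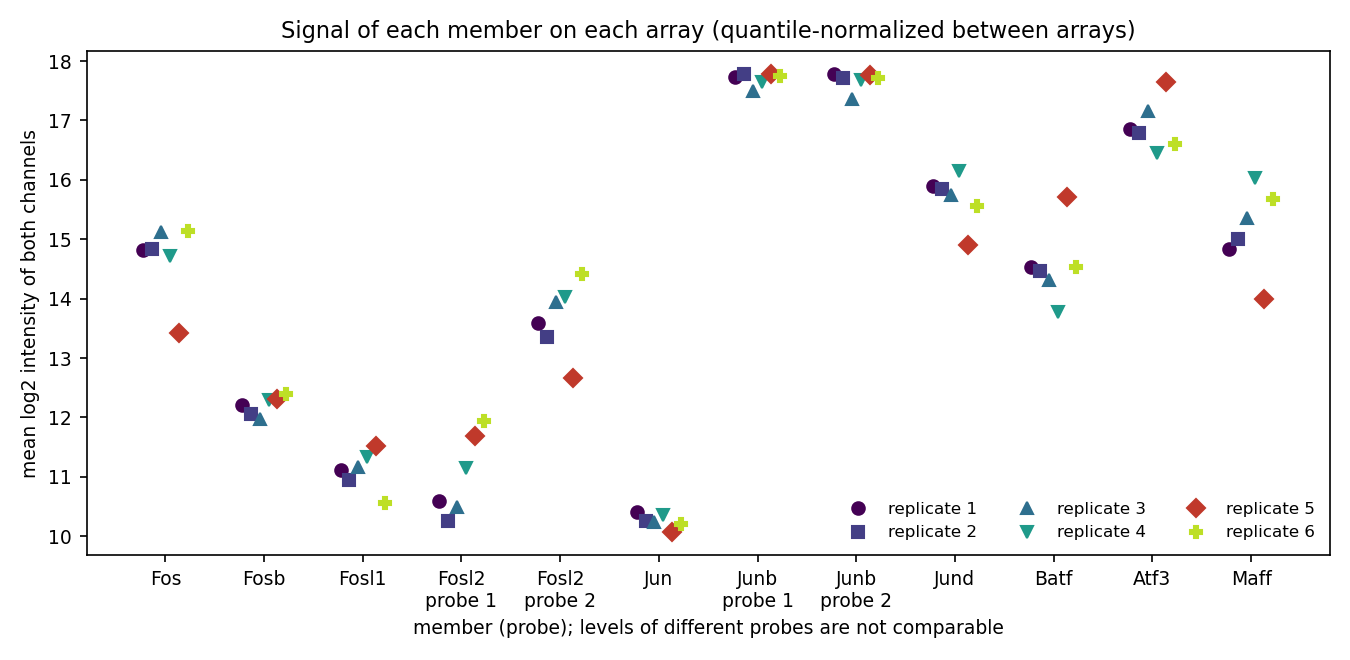
Mean log2 intensity of both channels (vertical axis, quantile-normalized between arrays) for each probe (horizontal axis) on each of the 6 arrays, with replicate 5 as a red diamond. Heights of different probes are not comparable; within a probe, replicate 5 is the lowest array for Fos (13.4) and Maff (14.0) and the highest for Batf (15.7) and Atf3 (17.6).

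Other genes of the pathway were counted from lists, each gene by its brightest probe; of 23339 genes so tested, 1.61% were higher and 0.54% lower with VIP, with a median log2 ratio of -0.00028. At an unadjusted p under 0.05 the shares were 7.19% and 5.68%. Of 18 further bZIP genes, possible partners or relatives of the members such as Batf3, Maf and Nfe2l2, 0 passed the test in either direction by their brightest probe (median -0.02, range -0.23 to 0.21); at an unadjusted limma p under 0.05, 2 were higher and 2 lower. Of all 32 probes of these genes, 3 were higher and 0 lower: 2 of the 3 probes of Nfe2l2, an oxidative stress factor whose probes ran from 0.21 to 0.23, and 1 of the 2 of Nfil3 (0.30; its brightest probe 0.10). Both genes are named after their values were seen. Of 21 kinases and factors upstream of AP-1, among them the ERK, JNK and p38 kinases and Srf, 20 were tested and 0 passed (median 0.01, range -0.14 to 0.17); unadjusted, 2 were higher and 1 lower, and of their 37 probes 0 were called. Transcript levels say nothing of the activity of these proteins.

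Of 18 genes known as AP-1 and NFAT targets in T cells, 2 were higher, 0 lower and 16 were not called (median 0.03); at an unadjusted limma p under 0.05, 4 were higher and 1 lower. The genes called were Il3, a haematopoietic cytokine, with 0.41 ± 0.055 (higher on 6 of 6 arrays; limma adjusted p = 0.0036), and Csf2, which encodes GM-CSF, with 0.28 ± 0.049 (4 of 6 arrays; adjusted p = 0.015). Il3 and Csf2 are neighbouring cytokine genes. Of 17 other immediate early genes tested, 5 were higher, 1 lower and 11 were not called (median 0.04). At an unadjusted limma p under 0.05, 8 were higher and 4 lower, where 7.19% and 5.68% of all genes were. The largest rises were those of Rgs2, which shortens G protein signals, at 0.47, and Nr4a3, an orphan nuclear receptor, at 0.44, both below Fos and above Fosb in fitted ratio. Dusp1, a MAP kinase phosphatase, had 0.41 over 3 arrays, outlier spots being left out on the others, and Rgs1 0.33. Egr2, a zinc finger factor, was the gene called lower, at -0.30 (limma adjusted p = 0.0498). Without replicate 5, Il3, Csf2, Rgs2, Nr4a3, Rgs1 and Egr2 kept their calls, with log2 ratios of 0.45, 0.32, 0.43, 0.46, 0.36 and -0.32, and Dusp1 could not be fitted. The fifth immediate early gene that was higher, Nr4a1, named after its value was seen, had 0.19, and 0.18 (limma adjusted p = 0.053) without replicate 5. As measured, Nr4a1 was higher on 3 of 6 arrays, and its fitted dye effect, red over green, was 0.86. Fos and Fosb were therefore not alone among immediate early genes in being higher with VIP, and 11 of that list's 17 genes were not called.

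The members' values were recomputed under 20 alternative settings, 6 of which left out 1 array each. Fos kept its call in 19 of the 20, with fitted log2 ratios between 0.66 and 0.78; it lost it only where both channels of an array were fitted as separate samples (adjusted p = 1.00). Fosb kept its call in 16 of 20, between 0.36 and 0.45. Fosl2 was called in 1 setting at each probe, and the other 8 probes in none. In each of these settings the fitted ratio of Fos was the highest of the members and that of Fosb came next.

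**Figure D5:**
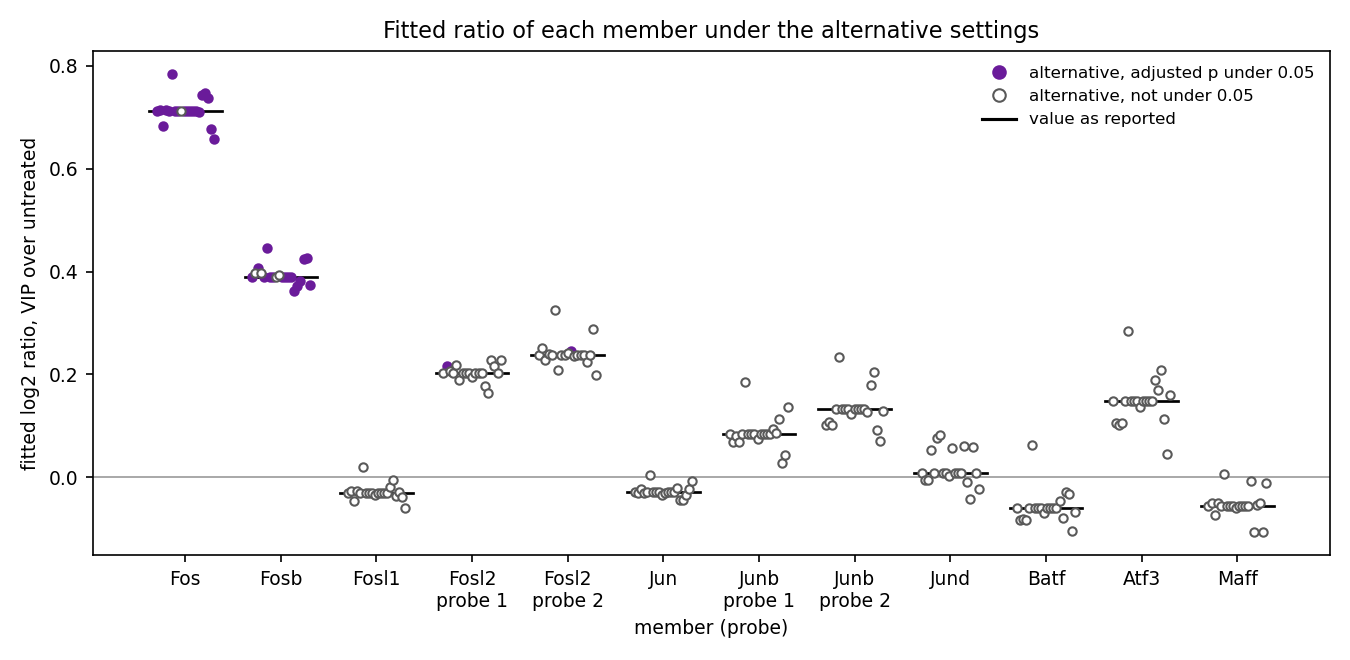
Fitted log2 ratio of VIP over untreated (vertical axis) of each probe (horizontal axis) under each alternative setting, filled where the adjusted p was under 0.05 and open where it was not; bars give the value as reported. Fos stays between 0.66 and 0.78 and Fosb between 0.36 and 0.45, and the highest value of any other probe is 0.32.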

How the data were processed

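RNA of VIP-treated and untreated cells was compared on 6 two-colour arrays. Per the file headers, Agilent Feature Extraction 9.5.1.1 gave spot intensity, local background, 0 or 1 spot flags and a log10 ratio of red over green in the deposited scanner files. The authors' series table holds log10 ratios on that scale, turned in sign for the arrays with VIP in Cy3 (they differed by at most 4.5e-06). Over the spots that are not controls, the medians of its columns were 0 on 4 arrays, -0.00198 on replicate 3 and -2.5e-05 on replicate 6. It served as an alternative.

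From the deposited intensity, background correction used normexp on the mean signal and the local background median (offset 50), followed by loess on each array in which control spots had weight 0 (limma 3.58.1, R 4.3.3). Spots flagged as non-uniformity or population outliers and the 1639 control spots were left out, and spots of a probe were averaged. Probes well above background on at least 3 arrays in either group's channel were tested. The model of the log2 ratio held the dye as intercept and the VIP effect (lmFit, eBayes; 4 residual degrees of freedom), with Benjamini-Hochberg adjustment over 33233 probes and a threshold of 0.05. The p-values measure only spread between these 6 arrays, and the number of arrays limits the precision. In the limma fit each probe's variance is drawn towards that of all probes, with 6.42 prior degrees of freedom. For probes with fewer arrays the p-value rests more on that prior. Each array is the pair of 1 replicate, per the labels; on replicate 5 the sex-linked transcripts differ between its channels.

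Members, lists and tests were chosen with earlier results of these data known. All 10 members are named, with at most 4 called genes of each list and direction, by size of the log2 ratio, and Cd4 and Cd3e. Gene names are those of the files; all 12 member probes carried the same name by RefSeq accession. Probes are placed on mm9 as in the files; whether a probe lies in an exon or UTR was not analysed here. Promoters are from RefSeq on GRCm38.p6. The fit was run on simulated data with known changes and independent normal noise. This checks the calculation and cannot show whether the model's assumptions hold for these arrays.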

Additional observations from a re-analysis of the deposited data

Results flagged for a closer look

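The ratio of Junb differed with the dye orientation: the mean with VIP in Cy5 was 1.34 above the mean with VIP in Cy3 at the first probe and 1.00 above it at the second, with all 3 arrays of one orientation above 0 and all 3 of the other below 0. Jund went the other way, by -0.74 over 5 arrays. These differences between orientations were not tested. Orientation and position on the slide cannot be told apart here.

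The level of Fos on replicate 5, 13.4 on the log2 scale, was far from the other 5 arrays, with a gap of 0.752 of the whole range. The second probe of Junb was low on replicate 3, at 17.4, with a gap of 0.734 of the range. Ratios and levels of the 12 probes made 24 groups that were looked at in this way, and chance alone marks about 1 in 20.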

How the results depend on the processing

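Of all probes, 535 were higher and 178 lower. Higher calls numbered 108 with a normexp offset of 0, 38 from the scanner's log ratio, 46 from the authors' processed values, 173 under median centring, 247 without a dye intercept, 3 with channels as separate samples and 243 to 839 with 1 array left out, the highest without replicate 5. Lower calls were then 9, 0, 0, 9, 53, 0 and 47 to 348, and 343 with array weights. Called members fell from 2 to 1, Fos, with the offset of 0, the scanner's log ratio and the authors' values, and to 0 with separate channels, the one setting that gives up the pairing within an array (no replicate block); with 1 array left out they stayed at 2. Signs turned under median centring for Batf (0.063), Fosl1 (0.020), Jun (0.0056) and Maff (0.0060), and for Jund with the scanner's log ratio (-0.0046), array weights (-0.0052) and 1 array left out (-0.042 to 0.061); the causes were not tested. Adding Aquantile leaves ratios as they are by construction. The class difference stayed between 0.26 and 0.34, with Fosl2 by its first probe where replicate 5 was left out. Fosl2's second probe could not be fitted without replicate 5, its only array with VIP in Cy5. Precision is limited by the 6 arrays and, for Junb, by saturation on replicate 5.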
